A study of Mus musculus with 6 samples.

Results

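The genes described here are 10 markers of tendon and connective-tissue fibroblasts, Scx, Mkx, Tnmd, Dpt, Pi16, Clec3b, Mfap5, Tnxb, Pcolce2 and Cd248, followed across 6 RNA-sequencing libraries from mouse bone. They were chosen by name, as rows of the normalized count table whose Ensembl identifier carries one of these symbols. A row was matched for 9 of the 10 genes, of 29616 rows in all. Tnmd, which encodes tenomodulin, a membrane glycoprotein of mature tendon, was not analysed here. Of the 9 genes, 8 had at least 10 normalized counts on average and were tested among 17442 genes. Dpt had fewer and is given by its read counts.

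All 6 libraries came from C57BL/6 mice by their labels. The 3 control libraries came from mice without dexamethasone. The 3 dexamethasone libraries came from mice given this synthetic glucocorticoid at 0.08 µg/g every day for 4 weeks. Treatment started at 8 weeks of age in the study's methods. The labels name the material bone cells, and the study describes cells that stained for Osteocalcin, a protein of the osteoblast lineage, after the marrow had been flushed from the bone and the rest digested with collagenase. The series calls the libraries biological replicates. How many mice went into each library and their sex were not given in the sources used here, so the p-values measure the spread between these libraries. The study calls the controls of these cells non-treated, and names saline for the controls of its bone imaging. In sorted bulk samples, fewer cells of a type and less RNA per cell cannot be told apart.

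Tendon, ligament, periosteum and the adventitia of vessels are built by fibroblasts that lay down type I collagen together with small glycoproteins that set the diameter and spacing of its fibrils. Scx, a basic helix-loop-helix factor, and Mkx, a homeobox factor, act in tendon progenitors and in the collagen program of tendon cells. The other genes mostly encode secreted or surface proteins of the same tissues. Tnxb encodes tenascin-X, a spacer between collagen fibrils, Mfap5 a microfibril-associated glycoprotein, Pcolce2 an enhancer of the proteinase that trims procollagen, Dpt dermatopontin, Clec3b tetranectin, Pi16 a secreted peptidase inhibitor of adventitial fibroblasts, and Cd248 endosialin, a surface lectin of stromal cells.

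Pcolce2 and Tnxb are among the 5 of the 10 genes whose RefSeq promoter sequences were read here. The stretches of genome just upstream of them are shown because these genes passed the test in opposite directions, as given below. Each is the 250 bases before the annotated start of the gene, 5′ to 3′ on the strand of the gene, in build GRCm38.p6. Capitals mark AGAACA on either strand, the hexamer at the core of the glucocorticoid receptor's element, and CANNTG, the E-box bound by factors of the class of Scx.
Pcolce2 (chr9:95637378-95637627, plus strand): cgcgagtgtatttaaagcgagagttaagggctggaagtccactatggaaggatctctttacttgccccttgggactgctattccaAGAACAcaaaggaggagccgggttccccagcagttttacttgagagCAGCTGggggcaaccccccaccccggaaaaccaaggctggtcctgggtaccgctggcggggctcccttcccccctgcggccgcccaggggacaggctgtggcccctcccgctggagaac
Tnxb (chr17:34670285-34670534, plus strand): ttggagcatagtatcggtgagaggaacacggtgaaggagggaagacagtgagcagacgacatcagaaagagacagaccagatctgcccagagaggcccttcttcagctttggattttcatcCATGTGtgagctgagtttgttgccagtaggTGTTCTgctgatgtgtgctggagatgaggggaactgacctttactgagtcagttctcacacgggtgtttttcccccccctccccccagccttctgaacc
Both stretches held 1 match to each motif. In Pcolce2 the hexamer began at position -165 and the E-box at -119 from the start of the gene, and in Tnxb they began at -99 and -129. Of 32851 upstream stretches of the same length, 16.1% held the hexamer and 66.2% an E-box. The stretch of Pi16 also held 1 hexamer, at -27, and those of Dpt and Tnmd held 0. These matches describe the letters and not binding.

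With dexamethasone, Scx fell 8.0-fold and Tnxb 2.55-fold, whereas Pcolce2 rose 3.11-fold. Clec3b also passed the test, 2.13-fold higher, but it reached the minimum for testing only through the dexamethasone group and lost its call under 4 alternatives, given with its reads below. Mkx, Mfap5 and Cd248 differed between the groups by less than the required log2 fold change of 1, and Pi16 did not pass the test. Differential expression required an adjusted p-value under 0.05 from limma over all tested genes and a log2 fold change of 1 or more in size. By this rule 4 of the 8 tested genes were differentially expressed, 2 higher and 2 lower, against 22.3% of all tested genes in either direction, 11.7% higher and 10.6% lower. By the adjusted p-value alone the number was 7 of 8, against 72.5% of all tested genes. The values of the groups did not overlap for 7 of the 8, against 74.7% of all tested genes, so these last shares were near or a little above those of all genes. With the libraries set to an equal sum, 1 gene was higher and 3 were lower. That scaling moved the median log2 fold change of all genes from 0.0007 to -0.11, and changes under it are relative to this shift. The median log2 fold change was -0.18 over the 8 tested genes, and it was -0.38 with no filter, -0.68 over genes averaging 100 or more and -0.29 with the libraries set to an equal sum. The libraries held 72596611 to 89910728 reads.

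**Figure D1:**
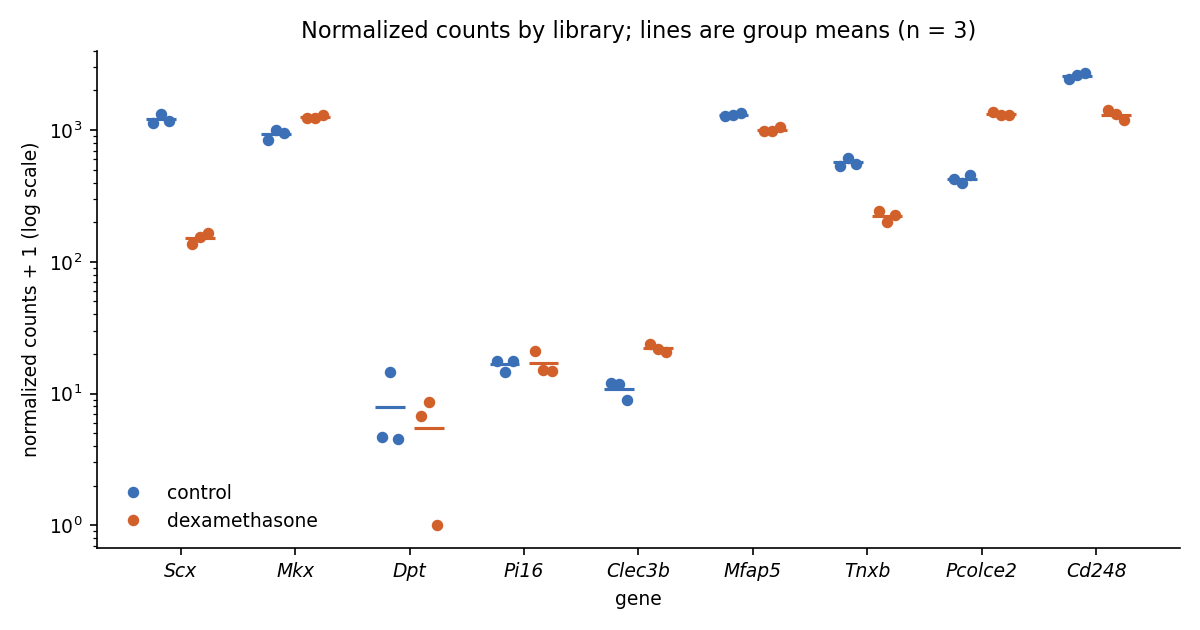
Normalized counts plus 1 on a log scale for the 9 genes with a row, in the 3 control (blue) and 3 dexamethasone (orange) libraries, with lines at the group means. Scx drops from 1140.2 to 1315 in the controls to 134 to 164 with dexamethasone, Pcolce2 climbs from 392 to 458 to 1292 to 1375, and the groups overlap only for Dpt and Pi16.

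Scx and Mkx gave log2 fold changes of opposite sign. In control replicates 1, 2 and 3, Scx had 1140.2, 1315 and 1163 normalized counts. In dexamethasone replicates 1, 2 and 3 it had 134, 154 and 164. Every dexamethasone library was therefore far below every control library. The group means were 1206 ± 95.0 (SD, n = 3) and 151 ± 15.0 (SD, n = 3), a log2 fold change of -2.99 with a standard error of 0.0855 (limma adjusted p = 3e-20). Scx lies within Bop1, a ribosome biogenesis gene on the opposite strand, and shares 0% of its exon bases with it in the GENCODE M21 annotation. Bop1 had 4705 ± 116 (SD, n = 3) normalized counts in the controls and 5642 ± 332 (SD, n = 3) with dexamethasone, a log2 fold change of 0.26, opposite in sign to that of Scx.

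Mkx had 836, 1006 and 953 normalized counts in the controls and 1239, 1242 and 1306 with dexamethasone. All dexamethasone libraries were above all controls, but by little. The means of 932 ± 86.8 (SD, n = 3) and 1262 ± 37.8 (SD, n = 3) gave a log2 fold change of 0.44 with a standard error of 0.0615 (limma adjusted p = 6.55e-07), short of the cut-off. Another annotated gene on the same strand shared 4.91% of its exon bases. The ratio of Scx to Mkx counts, which dividing each library by 1 factor cannot alter, was 136%, 131% and 122% in the controls and 10.9%, 12.4% and 12.6% with dexamethasone. Its mean was 10.9-fold lower, 129.7% ± 7.21 (SD, n = 3) against 11.9% ± 0.935 (SD, n = 3). The exact two-sided permutation p was 0.1, the smallest that 3 against 3 libraries allow. It was 1 of 7 ratios computed, chosen after their values were seen, of which 6 had this p (0.117 after Benjamini-Hochberg adjustment over the 7 exact tests). Tcf15, the nearest relative of Scx and a factor of the early somite, had 0 to 4 reads per library and was not tested.

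Among the matrix glycoproteins, Tnxb was the gene that fell by more than the cut-off. It had 533, 617 and 555 normalized counts in the controls and 244, 198 and 226 with dexamethasone. The highest dexamethasone library was below the lowest control by a wide margin. The means of 569 ± 43.6 (SD, n = 3) and 223 ± 23.0 (SD, n = 3) gave a log2 fold change of -1.35 with a standard error of 0.0911 (limma adjusted p = 1.41e-12). Other genes of the opposite strand covered 0.0246% of its exon bases.

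The other tenascins did not move as a family. Tnc, which encodes the tenascin of developing and injured tendon and of periosteum, fell from 153374 ± 4549 (SD, n = 3) normalized counts to 40742 ± 2379 (SD, n = 3), or -1.91 on the log2 scale (limma adjusted p = 5.06e-22). Tnn, the tenascin-W gene of bone surfaces, had a log2 fold change of 0.42, and Tnr, the tenascin-R gene of the nervous system, had one of 0.51 (limma adjusted p = 0.0467), both under the cut-off. The groups overlapped for Tnr but not for Tnn. For Tnr the limma adjusted p-value was 0.00401 without control replicate 2 and 0.202 without control replicate 3. The count of Tnxb relative to Tnc was 0.371% ± 0.0282 (SD, n = 3) in the controls and 0.546% ± 0.0351 (SD, n = 3) with dexamethasone, Tnc having the larger fold change. Tnn relative to Tnc was 5.03-fold higher, at 3.45% against 0.686%. For either ratio the exact two-sided permutation p was 0.1, the smallest possible.

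Mfap5 had 1277, 1304 and 1338 normalized counts in the controls and 976, 986 and 1049 with dexamethasone. It was the steadiest of the 9 genes among the controls, with a coefficient of variation of 2.35%. The groups did not overlap, but its log2 fold change of -0.38 with a standard error of 0.0524 (limma adjusted p = 5.45e-07) was short of the cut-off. Mfap2, the other gene of the same glycoprotein family, had 8 to 25 reads per library and gave -0.23 on the log2 scale (limma adjusted p = 0.572), which became 0.07 without dexamethasone replicate 3. Mfap5 binds the fibrillins, and these differed. Fbn1, 20.1% of whose exon bases lie opposite other annotation, had 9315 ± 355 (SD, n = 3) and 8243 ± 398 (SD, n = 3) normalized counts. Fbn2, the fibrillin of developing tissue, fell from 18389.6 ± 715 (SD, n = 3) to 2594 ± 121 (SD, n = 3), or -2.83 on the log2 scale (limma adjusted p = 2.49e-26). Mfap5 counts were 7.11% ± 0.127 (SD, n = 3) of those of Fbn2 in the controls and 38.8% ± 2.93 (SD, n = 3) with dexamethasone. Relative to Fbn1 they were 14% ± 0.212 (SD, n = 3) and 12.2% ± 1.04 (SD, n = 3), and here too the groups did not overlap (exact two-sided permutation p = 0.1).

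Pcolce2 was the gene that rose most. It had 423, 392 and 458 normalized counts in the controls and 1375, 1297 and 1292 with dexamethasone. The lowest dexamethasone library lay well above the highest control. The means of 424 ± 32.7 (SD, n = 3) and 1321 ± 46.3 (SD, n = 3) gave a log2 fold change of 1.64 with a standard error of 0.0653 (limma adjusted p = 3.1e-17). Pcolce, its close relative and the main enhancer of procollagen C-proteinase in bone, went the other way. It had 49635 ± 1924 (SD, n = 3) and 30166 ± 1341 (SD, n = 3) normalized counts, or -0.72 on the log2 scale (limma adjusted p = 4.13e-14), under the cut-off. Pcolce2 counts were 0.888%, 0.762% and 0.920% of those of Pcolce in the controls and 4.34%, 4.47% and 4.33% with dexamethasone. The ratio was 5.11-fold higher (exact two-sided permutation p = 0.1, the smallest possible), and Pcolce had far more counts in every library.

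The proteinases that act beside Pcolce2 differed in direction, with 2 higher and 1 lower of the 4 tested genes in a list of 6. Adamts2, which removes the N-terminal propeptide of procollagen, rose from 3971 ± 159 (SD, n = 3) normalized counts to 18398 ± 872 (SD, n = 3), or 2.21 on the log2 scale (limma adjusted p = 2.2e-24). Adamts14, an enzyme of the same group, rose with a log2 fold change of 1.76, and Tll1, a tolloid-like C-proteinase, fell with one of -1.55. Bmp1, the main C-proteinase, gave 0.36 on the log2 scale (limma adjusted p = 1e-08), under the cut-off. Tll2 and Adamts3 had too few reads to be tested.

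**Figure D2:**
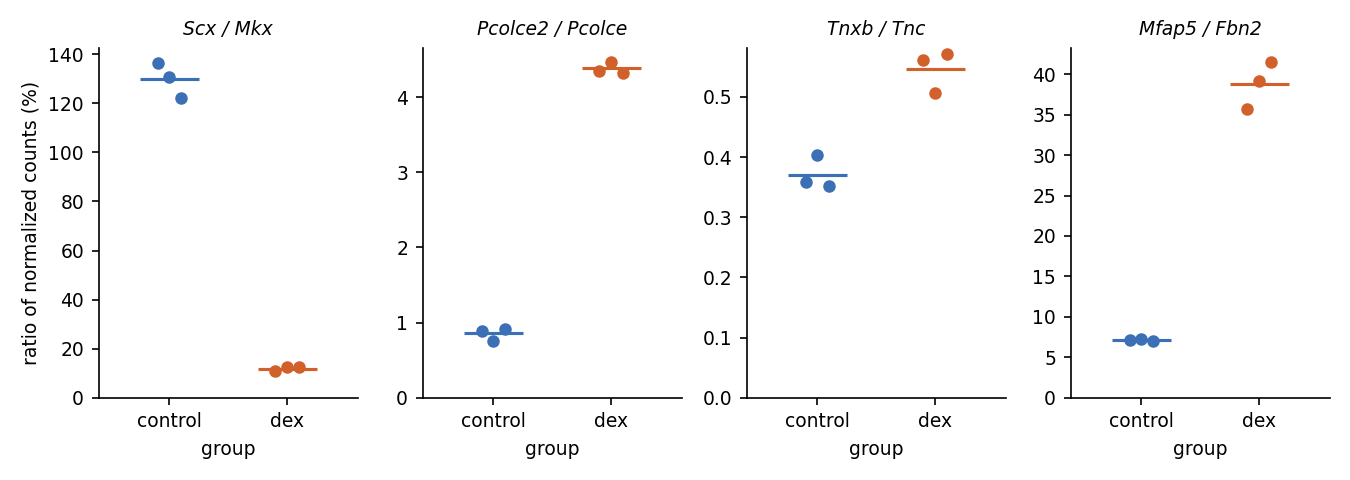
Ratio of normalized counts, in percent, between a gene and a partner in each control (blue) and dexamethasone (orange) library, with lines at the group means and every axis starting at 0. Scx over Mkx drops from 122% to 136% to between 10.9% and 12.6%, and Pcolce2 over Pcolce, Tnxb over Tnc and Mfap5 over Fbn2 are higher in all dexamethasone libraries.

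Of the surface and secreted proteins with a lectin fold, Cd248 had 2434, 2638 and 2698 normalized counts in the controls and 1423, 1317 and 1193 with dexamethasone. Each dexamethasone library was below each control. The means of 2589.9 ± 138 (SD, n = 3) and 1311 ± 115 (SD, n = 3) gave a log2 fold change of -0.98 with a standard error of 0.0561 (limma adjusted p = 4.94e-14), just short of the cut-off. The value passed the cut-off at an equal sum (-1.10), after quantile normalization (-1.12), with edgeR (-1.01), without control replicate 1 (-1.03) and without dexamethasone replicate 1 (-1.05). Thbd, the thrombomodulin gene of the same C-type lectin group, had a log2 fold change of -0.90, which was -1.01 at an equal sum and -1.05 after quantile normalization. The ratio of Cd248 to Thbd counts was 7.63% ± 0.270 (SD, n = 3) and 7.19% ± 0.535 (SD, n = 3), and its values overlapped between the groups (exact two-sided permutation p = 0.4). Cd93, an endothelial and myeloid gene of the group, rose from 21.5 ± 1.20 (SD, n = 3) normalized counts to 147 ± 7.08 (SD, n = 3), or 2.72 on the log2 scale (limma adjusted p = 1.82e-12). Clec14a, the remaining gene of the group, was not analysed here.

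Clec3b had 12, 11 and 9 reads in the controls and 24, 19 and 17 with dexamethasone. The groups did not overlap, yet the step was of a few reads, and only the dexamethasone mean of 21.1 ± 1.6 (SD, n = 3) normalized counts was over the minimum of 10, against 9.90 ± 1.73 (SD, n = 3) in the controls. The log2 fold change of 1.03 with a standard error of 0.344 (limma adjusted p = 0.0097) went below the cut-off with a pseudocount of 10 (0.65), at an equal sum (0.93), without control replicate 3 (0.89) and without dexamethasone replicate 1 (0.98). The adjusted p-value ranged from 0.00123 to 0.0409 over the alternatives. Its relative Clec3a was not analysed here.

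Pi16 had 18, 14 and 19 reads in the controls and 21, 13 and 12 with dexamethasone. The groups overlapped, and the log2 fold change was 0.02 with a standard error of 0.335 (limma adjusted p = 0.959). A gene on the opposite strand covered 3.49% of its exon bases. Among the other genes of its protein family, Glipr2 rose from 5227 ± 132 (SD, n = 3) normalized counts to 11268 ± 45.0 (SD, n = 3), a log2 fold change of 1.11, which was 0.99 at an equal sum and 0.92 after quantile normalization. Glipr1 had 16884 ± 389.8 (SD, n = 3) and 9095 ± 181 (SD, n = 3), a log2 fold change of -0.89, which was -1.01 and -1.10 under these scalings, and annotation on the opposite strand covered 22.8% of its exon bases. Crispld2 had one of -0.30 (limma adjusted p = 0.208). Pi15, Crispld1 and R3hdml had 0 to 6 reads per library.

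Dpt had 4, 14 and 4 reads in the controls and 6, 7 and 0 with dexamethasone. It was the least steady of the 9 genes, and its groups overlapped. The 0 in dexamethasone replicate 3 allows up to 3 reads, or 3.49 normalized counts, counting error only. No difference was detectable at this depth. Cnmd, the relative of Tnmd that encodes chondromodulin, had 0 to 8 reads per library.

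**Figure D3:**
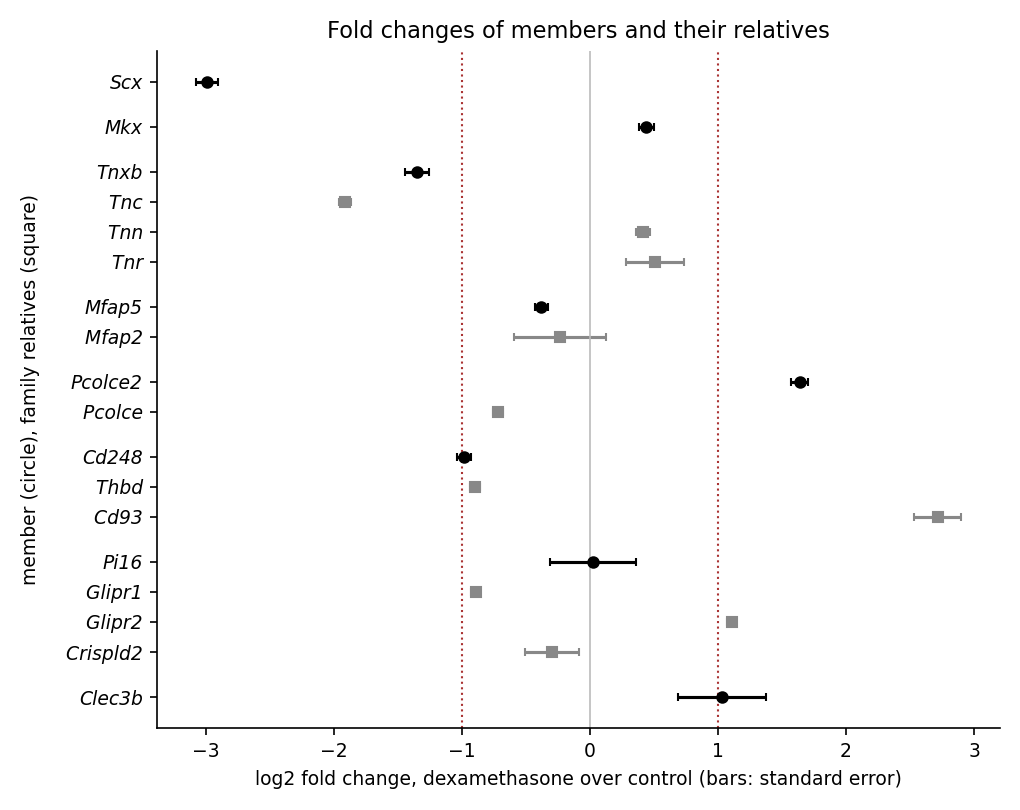
Log2 fold change of dexamethasone over control, with standard errors as bars, for the 8 tested genes (circles) and the tested genes of their families (squares), with dotted lines at the cut-offs of -1 and 1. Pcolce2 at 1.64 and Pcolce at -0.72 lie on opposite sides of 0, and Tnxb and Tnc at -1.35 and -1.91 on the same side.

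Levels of different genes were set side by side as normalized counts per kilobase of exon, with lengths from GENCODE M21. In the controls Cd248 was the highest at 994 ± 53.1 (SD, n = 3), followed by Scx at 601 ± 47.3 (SD, n = 3), Mfap5 at 364 ± 8.56 (SD, n = 3) and Mkx at 228 ± 21.2 (SD, n = 3). Pcolce2 at 91.8 ± 7.08 (SD, n = 3) and Tnxb at 46.6 ± 3.57 (SD, n = 3) came next, and then Clec3b at 9.98 ± 1.74 (SD, n = 3). Dpt at 4.04 ± 3.38 (SD, n = 3) and Pi16 at 2.46 ± 0.264 (SD, n = 3) overlapped at the bottom, the only neighbours among the controls that did.

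With dexamethasone the order of these levels changed. Cd248 was still the highest at 503 ± 44.2 (SD, n = 3) counts per kilobase, and Mkx came next at 308 ± 9.24 (SD, n = 3). Pcolce2 at 286 ± 10.01 (SD, n = 3) and Mfap5 at 279.7 ± 11.0 (SD, n = 3) overlapped. Scx was now below Mkx, Pcolce2 and Mfap5, at 75.1 ± 7.45 (SD, n = 3). Clec3b at 21.3 ± 1.62 (SD, n = 3) and Tnxb at 18.2 ± 1.89 (SD, n = 3) overlapped as well, as did Dpt and Pi16.

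On the same scale several relatives were far more abundant. In the controls Tnc had 19734 ± 585 (SD, n = 3) counts per kilobase, Pcolce 12983 ± 503 (SD, n = 3) and Thbd 9117 ± 251 (SD, n = 3), against 46.6, 91.8 and 994 for Tnxb, Pcolce2 and Cd248. Mfap2, in contrast, had 14.7 ± 3.81 (SD, n = 3), below the 364 of Mfap5. These libraries therefore held little of Pi16 and Dpt and much more of Cd248, Scx, Mfap5, Mkx and Pcolce2.

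**Figure D4:**
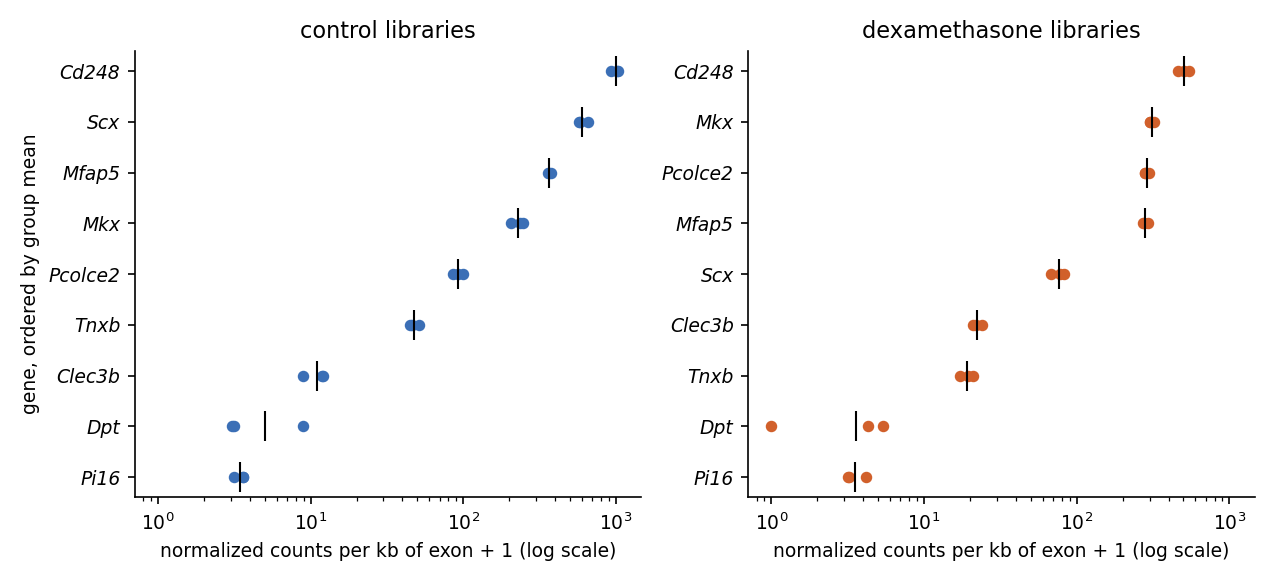
Normalized counts per kilobase of exon plus 1, on a log scale, for the 9 genes in the control (left) and dexamethasone (right) libraries, ordered by group mean, with points for libraries and ticks for means. Scx goes from a mean of 601 to 75.1, below Mkx, Pcolce2 and Mfap5, while Cd248 stays first and Pi16 and Dpt last.

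Further genes were read from 6 lists, of family relatives, tendon, fibroblast, elastic-fibre, procollagen proteinase and periosteum genes. The 17 relatives, 10 of them tested, were listed by protein family and not by tissue. Over these 6 lists with 93 genes, 68 were tested, of which 14 were higher and 16 lower. The split was 11 higher and 18 lower at an equal sum and 12 higher and 20 lower after quantile normalization. Their median log2 fold change was -0.24 against 0.0007 for all tested genes. By the same rule 11.7% of all tested genes were higher and 10.6% lower. These are the shares to set beside 14 and 16 of 68 and beside the counts of each single list. These lists, like the 10 genes, were drawn up with earlier results of these data known.

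Of a list of 18 further tendon genes, 13 were tested, 5 of them lower and 3 higher, with a median log2 fold change of -0.83. The lower genes were Col12a1, a fibril-associated collagen, at -2.25, Fmod, a proteoglycan of tendon fibrils, at -1.24, Comp, a cartilage and tendon matrix protein, at -1.23, Eya1, a transcriptional coactivator, at -1.23, and Itgbl1 at -4.71. With 1, 4 and 4 reads in the dexamethasone libraries, Itgbl1 reached the minimum for testing only through the controls, and its log2 fold change ranged from -5.01 to -3.07 (pseudocount of 10) over the alternatives. Col12a1 fell from 209939 ± 6215 (SD, n = 3) normalized counts to 44064 ± 2525 (SD, n = 3), and Itgbl1 from 102 ± 18.2 (SD, n = 3) to 3.32 ± 2.06 (SD, n = 3). The higher genes were the zinc-finger factors Egr1 and Egr2, which act on collagen genes in tendon, at 2.51 and 1.91, and Prg4, the lubricin gene, at 1.06. Egr1 rose from 2379 ± 73.3 (SD, n = 3) normalized counts to 13524 ± 703 (SD, n = 3). Prg4 lost its call with a pseudocount of 10 (0.91), at an equal sum (0.95), without control replicate 3 (0.98) and without dexamethasone replicate 2 (0.89). Thbs4 and Kera were not analysed here.

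Of a list of 24 further fibroblast genes, 16 were tested, 4 of them higher and 3 lower, with a median log2 fold change of -0.04. Pdgfra, the PDGF receptor of most fibroblasts, rose from 2599.9 ± 57.5 (SD, n = 3) normalized counts to 7787 ± 504 (SD, n = 3), or 1.58 on the log2 scale (limma adjusted p = 9.48e-21). Col15a1 rose by 1.24 on the log2 scale, S100a4 by 1.31 and Fbln2 by 1.05, the last of which was 0.94 at an equal sum and 0.99 after quantile normalization. Other annotation on the same strand shared 51.7% of the exon bases of S100a4, whose value is therefore uncertain. Sema3c, a secreted guidance factor, fell from 8715 ± 429.7 (SD, n = 3) normalized counts to 610.4 ± 21.9 (SD, n = 3), or -3.83 on the log2 scale (limma adjusted p = 1.71e-27). The fibril proteoglycan genes Lum and Dcn fell with log2 fold changes of -2.57 and -1.5. Gsn at 0.37 and Fstl1 at -0.33 were under the cut-off.

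Of 15 elastic-fibre and microfibril genes, 13 were tested, 2 of them higher and 3 lower, with a median log2 fold change of -0.01. The lower genes were Fbn2, given above, Fbln5, which guides elastic-fibre assembly, at -2.05, and Emilin1, an elastic-fibre glycoprotein, at -1.09. The higher genes belong to the latent TGF-beta binding proteins. Ltbp2 rose from 40.0 ± 13.4 (SD, n = 3) normalized counts to 626 ± 5.57 (SD, n = 3) and Ltbp3 from 10455 ± 416 (SD, n = 3) to 48011 ± 2158 (SD, n = 3), log2 fold changes of 4.0 and 2.20. Ltbp1 at 0.84, Ltbp4 of the same group at -0.32 and Lox, a collagen and elastin crosslinking enzyme, at 0.74 were under the cut-off.

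Of 13 genes of periosteum and skeletal mesenchyme, 12 were tested, 1 of them higher and 3 lower, with a median log2 fold change of -0.49. Aspn, the asporin gene, fell from 23799 ± 1486 (SD, n = 3) normalized counts to 206 ± 18 (SD, n = 3), or -6.85 on the log2 scale (limma adjusted p = 9.41e-31). Acta2, the smooth muscle actin gene of contractile fibroblasts, and Prrx2, a homeobox gene of limb mesenchyme, fell with log2 fold changes of -3.54 and -1.20. Lepr, the leptin receptor gene of marrow stroma, rose with one of 1.72. Postn at 0.25 and Prrx1 at -0.86 were under the cut-off.

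**Figure D5:**
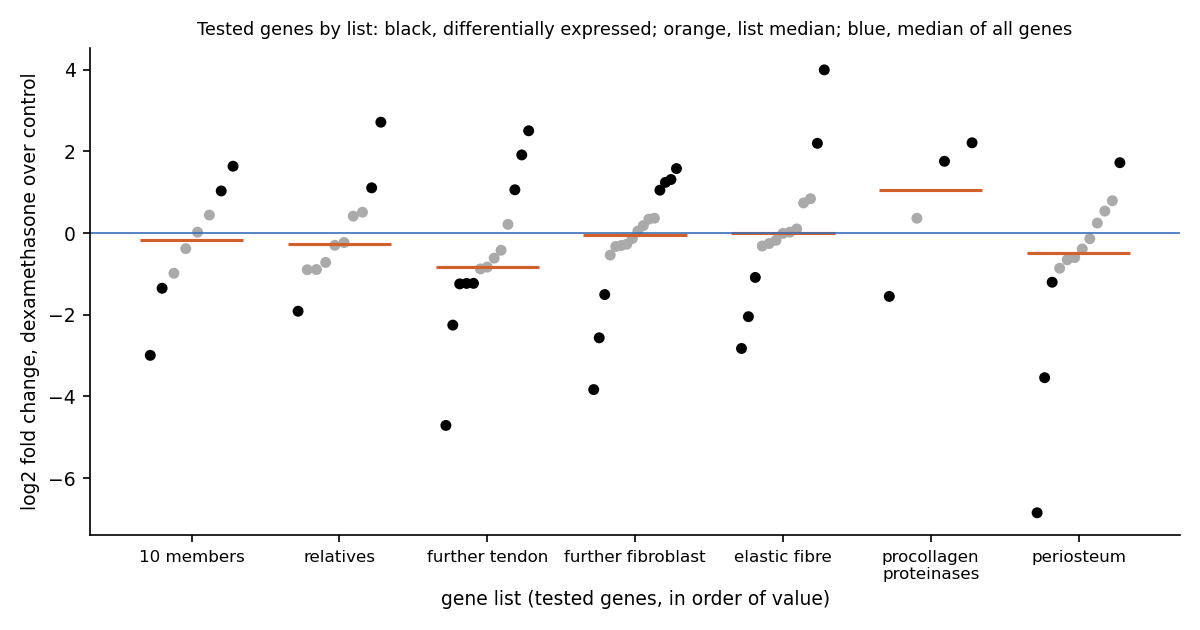
Log2 fold change of each tested gene by list, in order of value, with differentially expressed genes in black, others in grey, the list median in orange and the median of all tested genes in blue. Among the 7 lists drawn, the further tendon genes have the lowest median at -0.83 and the 4 tested procollagen proteinases the highest at 1.06 (-0.065 over all 6 without the filter), and each of them holds genes on both sides of 0.

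Markers of the sorted cells and of other cells moved as well. Of 12 osteoblast markers, 9 were lower and 2 higher. Bglap, which encodes Osteocalcin, the protein for which the cells were stained, had 98.2 to 122 normalized counts in the controls and 9.54 to 15.1 with dexamethasone. Col1a2, the marker with the highest mean, had a log2 fold change of -1.05, which was -0.995 after quantile normalization. Sp7, the osterix gene, had one of -1.86, while Spp1 and Dmp1 had log2 fold changes of 5.25 and 7.16. Other annotation on the same strand shared 18.75% of the exon bases of Spp1. Summed over their markers, blood cell genes had 121 to 157 normalized counts in the controls and 809.9 to 860.5 with dexamethasone, cartilage genes 6245 to 6699 and 22205 to 25056, fat genes 31.2 to 38.7 and 1452 to 1563, and endothelial genes 381 to 417 and 456 to 491. Muscle genes had 605 to 689 and 689.99 to 757, mural cell genes 24329.6 to 25922 and 21420.2 to 23914, and nerve sheath genes 672 to 718 and 486 to 519. Within the blood list Cd53 rose from 15.7 ± 3.99 (SD, n = 3) normalized counts to 283 ± 24.8 (SD, n = 3). Itgb2 rose from 54.6 ± 10.2 (SD, n = 3) to 503 ± 26.2 (SD, n = 3). Laptm5 and Coro1a fell, with log2 fold changes of -1.49 and -1.77. Ptprc, Tyrobp, Lcp1 and Cd52 overlapped between the groups, and Ptprc had 2 to 5 reads per library. The genes with the highest means in these lists were Itgb2 (log2 fold change 3.2) for blood, Sox9 (1.92) for cartilage, Fabp4 (1447.7 normalized counts with dexamethasone against 2 or 3 reads in each control) for fat, Kdr (0.25) for endothelium, Des (0.17) for muscle, Pdgfrb (-0.08) for mural cells and S100b (-2.0) for nerve sheath. Defining markers at 3 reads or fewer in every library were Cdh5 and Tie1 for endothelium, Myh4 for muscle, Col9a1 and Matn1 for cartilage, Lep and Cidec for fat, Abcc9 for mural cells and Cdh19 for nerve sheath. The differentially expressed markers numbered 2 higher and 2 lower of 6 tested for blood, 2 and 1 of 3 for cartilage, 1 and 0 of 2 for fat, 0 of 4 for endothelium, 0 and 1 of 4 for muscle, 0 and 2 of 5 for mural cells and 0 and 1 of 4 for nerve sheath. Of all tested genes 11.7% were higher and 10.6% lower. The lower blood markers Laptm5 and Coro1a and the lower muscle marker Acta1 reached the minimum for testing only through the controls. Fabp4, the higher fat marker, reached it only through the dexamethasone group. The part of these other cells in the values of the fibroblast genes was not tested.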

How the data were processed

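Poly(A) RNA of 3 control and 3 dexamethasone samples was sequenced with a stranded kit. The authors aligned and counted reads per gene with STAR 2.7.10a and divided them by a DESeq2 1.36.0 size factor per library. The deposited values are this signal, called normalized counts here. The submitters' processing notes name build GRCm39. The release of the gene annotation and how strand was set in counting were not given in the sources used here.

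Symbols, exon lengths and overlaps came from GENCODE M21 (28087 of 29616 rows matched), which may differ from the authors' annotation. All values (100%, within 0.001) were whole multiples of 1 read, so reads were recovered. No row totalled under 3 reads. The number of columns left out was 0.

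Log2(normalized count + 1) was compared with limma 3.58.1 (with a mean-variance trend, R 4.3.3) for the 17442 genes averaging 10 or more, with Benjamini-Hochberg adjustment. Ratios were compared on the log2 scale by an exact permutation test. Alternatives were pseudocounts of 0.5 and 10, other filters (none, an average of 100 or more), an equal sum, quantile normalization, limma with no trend, DESeq2 1.42.0 and edgeR 4.0.16 run on the recovered reads, a replicate block, each library left out, and the adjusted p-value alone. The fits were tested on simulated data.

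The genes and lists were chosen with earlier results of these data known. Named were the 10 genes, their relatives, of the other lists the 3 genes with the highest mean and the 3 with the largest change among differentially expressed genes averaging 100 or more, and the highest gene of each marker list. The ratios, Bop1, Fbn1, Ltbp4, Bglap, Spp1, Dmp1 and the other differentially expressed list genes were named after their values were seen.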

Additional observations from a re-analysis of the deposited data

How the results depend on the processing

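The number of differentially expressed genes, 3894, was 2170 with a mean of at least 100 and 12645 by the adjusted p-value alone, both by construction. With the adjusted p-value alone 7 of the 10 genes and 58 list genes passed, against 4 and 30. Under the other alternatives 3 to 5 of the 10 genes passed, Clec3b and Cd248 being those that changed sides. Pi16 (0.02) turned to -0.0856 at an equal sum and lay between -0.139 (without dexamethasone replicate 1) and 0.107 with 1 library left out, and was -0.065 without control replicate 2. Mfap2 (-0.23) lay between -0.437 and 0.0705 with 1 library left out. The median of the further fibroblast genes (-0.04) was 0.0502 without a filter, 0.0516 after quantile normalization and between -0.137 and 0.0956 when a library was left out, positive without control replicate 1 and without dexamethasone replicate 1. That of the elastic-fibre genes (-0.01) lay between -0.024 and 0.00437 with 1 library left out. It was -0.0927 without a filter, -0.123 at an equal sum and -0.198 after quantile normalization. That of the procollagen proteinases (1.06, over 4 genes) was -0.065 without a filter, over 6 genes. The genes added there were Tll2, with 0 to 9 reads per library, and Adamts3, with 0 to 2. Without a filter these lists held further genes of few reads, and beyond this the cause of the shifts was not tested.

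Same-numbered libraries showed no shared shift, as their deviations from the group means correlated at -0.0999, -0.105 and -0.0199. Differently numbered ones correlated at -0.00304 to 0.0981. With deviations from means of 3 libraries, these values cannot show whether the libraries were paired by design. With the replicate block 3897 genes, 4 of the 10 genes and 30 list genes passed, and it changed no call among the named genes. Depth limited Dpt, Pi16 and Clec3b, with 24 reads or fewer in every library.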

Other observations

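Several further fibroblast and mesenchyme genes lay below the minimum for testing. Fap, a protease of activated fibroblasts, had 2, 1 and 4 reads in the controls and 20, 12 and 13 with dexamethasone. Twist2, a basic helix-loop-helix factor of mesenchyme, 46.5% of whose exon bases lie opposite other annotation, had 2, 1 and 1 reads and then 14, 18 and 9, whereas its relative Twist1 was abundant in both groups, at 4882 ± 249 (SD, n = 3) and 4437 ± 217 (SD, n = 3) normalized counts with overlapping groups. Dpp4, which marks adventitial fibroblasts together with Pi16, had 0 to 2 reads in every library. Scx had 141 reads in each of the 3 dexamethasone libraries, whose totals differed, so that its normalized counts there differ only by the size factors. These genes were named after their values were seen, and no explanation was tested.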
